A study of Drosophila melanogaster with 4 samples.

Results

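The genotype by paraquat interaction is the difference between 2 responses to the same treatment: the change that paraquat feeding made in kdm5 mutant flies minus the change it made in wild type flies. It was computed for each gene on the log2(RPKM + 1) scale (RPKM, reads per kilobase of gene and per 1e6 mapped reads) as mutant paraquat minus mutant control, less wild type paraquat minus wild type control. All genes that reached 1 RPKM in at least 1 of the 4 libraries were members, which gave 8611 of the 12073 gene IDs listed. A positive value means that the gene went further up, or less far down, in the mutant than in wild type; a negative value means the reverse. Of the members, 8326 matched a symbol in the reference table, 7698 reached the minimum in all 4 libraries and 29 had 0 reads in at least 1.

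The animals were whole adult females of Drosophila melanogaster, 1 to 3 days old and reared at 25 °C. Wild type flies were w1118, and the mutants, in the same w1118 background, carried 2 alleles of kdm5 over each other (w1118; kdm5K6801/10424). Flies of either genotype fed for 6 hours on 5% sucrose alone, the control, or on 20 mM paraquat in 5% sucrose. RNA was extracted from groups of 5 flies, and each of the 4 combinations had 1 poly-A library, so the interaction rests on 4 numbers per gene, has no replicate check and carries no p-value.

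Kdm5 is a histone demethylase that removes methyl groups from lysine 4 of histone H3, a mark found at the start of active genes, and it also takes part in gene activation through protein complexes that do not need the demethylase activity. Paraquat is a herbicide that passes electrons to oxygen inside cells and so makes superoxide. Flies answer it with enzymes that neutralise or conjugate reactive compounds, such as glutathione S-transferases, cytochrome P450s and UDP-glycosyltransferases, and with metal-binding metallothioneins and chaperones. In a whole female much of the RNA comes from the ovary, so the cell types that make eggs and eggshell weigh heavily in each value.

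The libraries were of near equal depth, with 27.9 M to 29.1 M uniquely mapped reads (M, 1e6). One library, the wild type control, lay away from the other 3. On the log2(RPKM + 1) scale the SD over genes of its difference from each other library was 0.72 to 0.75, against 0.59 and 0.53 between wild type paraquat and the mutant libraries and 0.28 between the 2 mutant libraries. Every interaction value uses that library and cannot be computed without it. The mutant minus wild type difference under paraquat, which does not use it, is given beside many of the results below. It shares the paraquat libraries with the interaction, so for genes chosen by their interaction it is no separate check. Summed over markers of muscle, RPKM was 2070 in the wild type control and 4731 to 6703 in the other libraries; over markers of follicle cells and eggshell it was 6729 against 1686 to 3144; and over markers of the female germline it was 496 against 302 to 393. A single gene gave 349 RPKM of the germline sum in the wild type control. Fat body and yolk markers summed to 8483 and 4075 RPKM without and with paraquat in wild type, and 9711 and 5996 in the mutant. Yp1 alone gave 3895 and 1774 RPKM of the wild type sums. The fat body members Lsp2, Fbp1 and Fbp2 weighed little in them and each had an interaction of −1 or less. Fbp1 went up in wild type, from 1.93 to 17.5 RPKM, and the median interaction of the 6 markers was −0.90. Haemocyte markers summed to 40.3 to 45.7 RPKM across the libraries. The highest single marker gave 34.5 RPKM of this in the wild type control and 24.6 to 28.0 elsewhere. Of the 5 haemocyte markers measured, 3 had an interaction of −1 or less, and the median was −1.14. The libraries therefore differ in summed markers of some tissues. Fewer cells of a type cannot be told apart from less RNA per cell in these samples. Markers of the male reproductive tract summed to under 0.5 RPKM in every library, with 0 members.

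Kdm5 itself was at 43.4 RPKM in the wild type control, 22.5 in wild type with paraquat, 2.06 in the mutant control and 2.03 in the mutant with paraquat. Both mutant libraries were far below both wild type libraries. Its interaction value was 0.91, under the size rule, with responses of −0.92 in wild type and −0.01 in the mutant. Which of the wild type libraries set it cannot be told.

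With no replicates a size rule stood in for a test: a gene was called at an interaction of at least 1 or of −1 or less, a 2-fold difference between the responses on the scale used. By this rule 720 genes (8.36%) were higher and 532 (6.18%) lower. The median over all genes was 0.25, with quartiles at −0.38 and 0.66, and 62.2% of genes were above 0. The offset depended on the scaling: the median was 0.13 under median-ratio scaling and 0.04 under upper-quartile scaling, and the share of calls on the higher side went from 57.5% to 36.8% and 25.6%. Values close to the rule were common, with 363 genes at 1 to 1.1 in size and 495 at 0.9 to 1. The minimum level divided fewer genes, with 109 members whose highest RPKM was 1 to 1.1 and 85 genes left out at 0.9 to 1.

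The wild type response was wide and the mutant response narrow. Over all genes the SD of the response was 0.75 in wild type and 0.28 in the mutant, and the medians were −0.27 and −0.04. Among the 720 higher genes, 625 (86.8%) had a wild type response of −1 or less and a mutant response within 1 of 0. The mutant response reached 1 while that of wild type stayed within 1 for only 12 of them, 6 were down in both genotypes, 1 was up in both and 76 passed the rule through 2 smaller responses. Among the 532 lower genes, 312 (58.6%) were up by at least 1 in wild type and within 1 in the mutant. In 186 (35.0%) neither response reached 1, in 17 the mutant was down and wild type within 1, in 10 both were up, and in 7 the genotypes went in opposite directions. Both patterns place most of the interaction in the wild type pair of libraries.

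**Figure D1:**
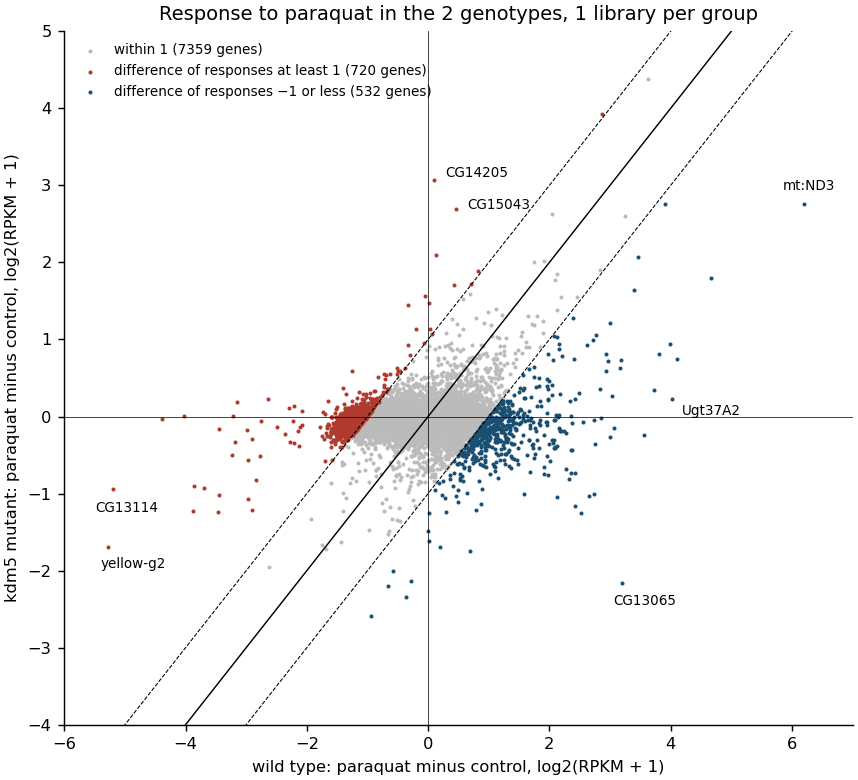
Each point is 1 of 8611 genes, with the wild type response to paraquat on the horizontal axis and the kdm5 mutant response on the vertical axis, both as differences of log2(RPKM + 1); the solid line marks equal responses and the dashed lines a difference of 1. The 720 higher genes (red) and 532 lower genes (blue) spread mainly along the horizontal axis, and few genes leave the band through the mutant response.

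A finer view asks which of the 4 libraries set the value. A library was said to stand apart for a gene when it was the highest or the lowest of the 4 and its gap to the nearest other was at least 50% of the whole range. That library was the wild type control, on the high side, in 611 (84.9%) of the higher genes, and on the low side in 293 (55.1%) of the lower genes. Over all 8611 genes it was high and apart in 34.1% and low and apart in 12.7%. Wild type paraquat stood apart in 43 higher and 81 lower genes, the mutant control in 6 and 6 and the mutant paraquat library in 8 and 5, while 52 higher and 147 lower genes had no single library apart. For 904 of the 1252 called genes, then, a property of that 1 library and a difference between the genotypes in their response cannot be told apart. With the mutant control put in its place as the baseline for both genotypes, which leaves the difference between the genotypes under paraquat, 195 genes were higher and 229 lower.

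**Figure D2:**
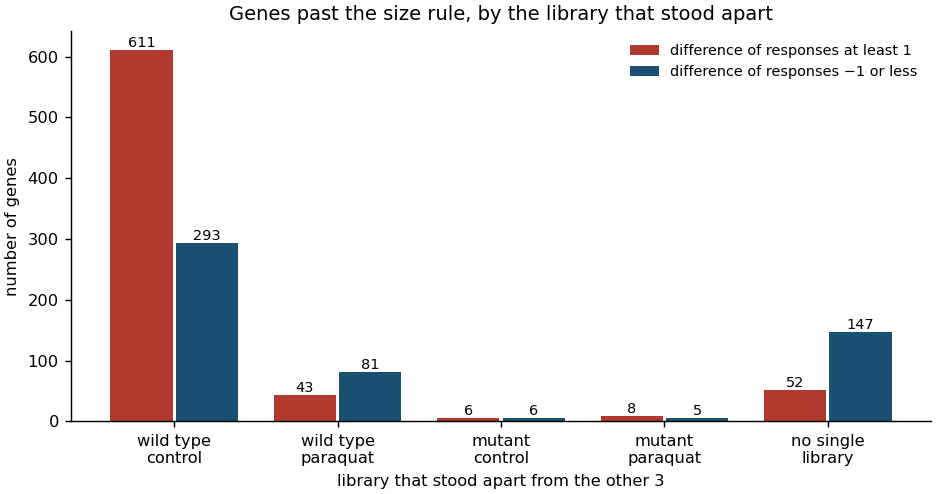
Bars, from 0, count the genes past the size rule by the library that stood apart from the other 3, with higher genes in red and lower genes in blue. The wild type control accounts for 611 higher and 293 lower genes and the mutant libraries together for 14 and 11.

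Most of the highest interaction values belonged to genes that were far lower in wild type flies fed paraquat than in the other 3 libraries. The 12 highest among named genes of at least 5 RPKM ran from 4.36 to 2.81, and in 10 of them wild type paraquat was the library apart. CG15571 was at 34.0 RPKM in the wild type control, 0.663 in wild type with paraquat, 24.9 in the mutant control and 24.3 in the mutant with paraquat. Its interaction was 4.36, and the paraquat to control ratio in the mutant was 50.1 times that in wild type (95% interval 26.4 to 107). Here and below the interval covers counting error only, not differences between flies. The neighbouring gene CG15570 was at 16.4, 0.0737, 11.9 and 11.9 RPKM in the same order of libraries, with 11 reads behind the lowest value and an interaction of 4.03. CG15571 and CG15570 lie next to each other on chromosome X (4216873 to 4217394 on the minus strand and 4218170 to 4223331 on the plus strand in the BDGP6 annotation), and the mucin gene Muc4B, at 30.6, 1.18, 44.1 and 23.1 RPKM with an interaction of 2.96, starts at 4244095 on the same chromosome. A second pair lies on chromosome 2L. CG13114 (9545811 to 9547424, plus strand) was at 41.1, 0.150, 75.03 and 38.7 RPKM, with 7 reads in wild type paraquat, an interaction of 4.26 and a ratio of 142 (68.3 to 353). CG13113, just before it, was at 9.24, 0.147, 10.3 and 11.9 RPKM with 3 reads in wild type paraquat, an interaction of 3.35 and a ratio of 72.4 (23.7 to 358). CG13084 and CG13083, a further pair of neighbours farther along 2L, had interactions of 3.27 and 2.81 and were at 8.70 and 20.9 RPKM in wild type paraquat against 53.8 RPKM or more in each of the other libraries.

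In all the genes named so far in this group the mutant response was between −0.94 and 0.19, so none was called higher with paraquat in the mutant. CG4066 (13.8, 0.587, 7.66 and 7.69 RPKM, interaction 3.22) and CG12716 (7.55, 0.380, 3.51 and 4.28 RPKM, interaction 2.86) had the same shape. CG1077 (8.70, 0.0612, 2.89 and 2.08 RPKM, interaction 2.86) had no library apart, because the wild type control was also well above the mutant pair. The exception among the 12 was CG14205, where the mutant control was low: 6.32, 6.85, 0.818 and 14.2 RPKM, an interaction of 2.97 and a ratio of 16.0 (12.2 to 21.4).

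The lowest interaction values ran from −5.36 to −3.22 over 12 genes and had no common shape. CG13065 (chromosome 3L, 16277435 to 16278180, plus strand) had the lowest value of all 8611, −5.36, with 1.30, 20.1, 6.77 and 0.737 RPKM. It was up with paraquat in wild type and down in the mutant, and the mutant ratio was 143-fold smaller than that of wild type (71.8 to 289). CG13044, also on 3L, was at 2.49, 40.4, 4.31 and 3.49 RPKM, with wild type paraquat alone high and an interaction of −3.81; it overlaps an annotated antisense RNA, and reads of the pair cannot be told apart without strand. Ugt37A2, a UDP-glycosyltransferase that joins sugars to foreign compounds, was at 4.21, 84.1, 10.7 and 12.7 RPKM. Its interaction was −3.81 and the mutant ratio was 16.9-fold smaller (14.0 to 20.3). In contrast tobi, an alpha-glucosidase gene under insulin and glucagon-like control, was at 3.69, 36.6, 277 and 231 RPKM (interaction −3.26). Its wild type control was the lowest library, and wild type paraquat was also far below both mutant libraries. CG31104 had the wild type control alone low, at 3.79, 39.1, 39.7 and 35.6 RPKM (interaction −3.22), and under paraquat the genotypes differed by only −0.13. The other 7 of the 12 were 3 mitochondrial genes and 4 with opposite responses, described below.

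**Figure D3:**
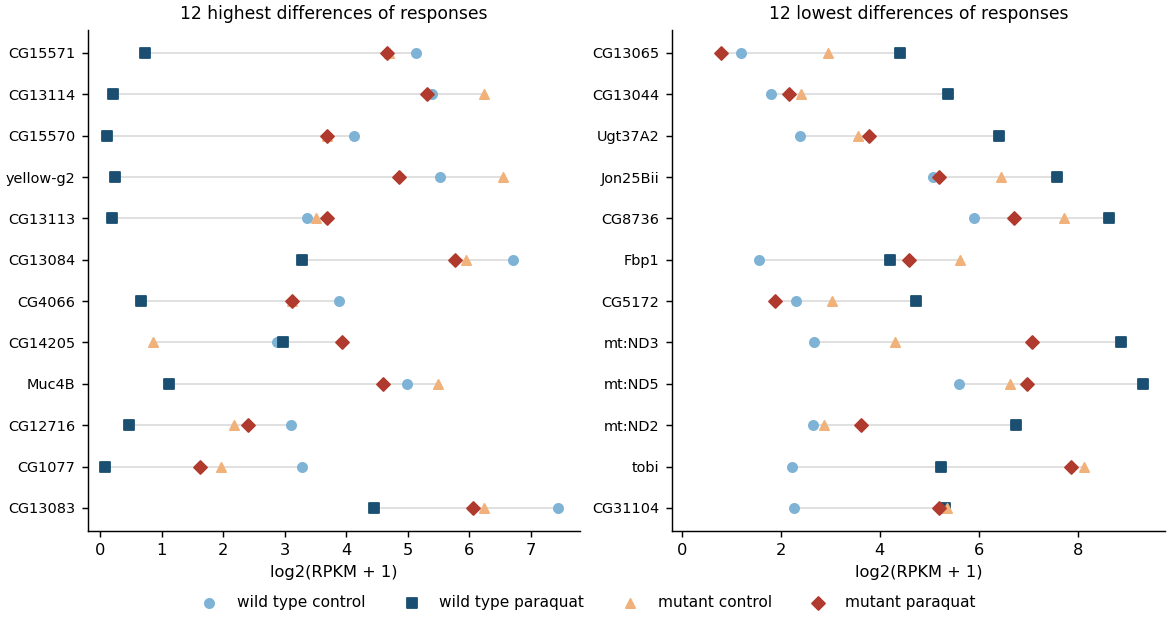
Values of log2(RPKM + 1) in the 4 libraries for the 12 genes of highest (left) and the 12 of lowest (right) interaction, 1 row per gene and 1 marker per library, with a grey line over the range. On the left the wild type paraquat square is the lowest marker for every gene but CG14205; on the right no library is at the low end throughout.

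Eggshell genes held several of the highest values. These genes are switched on in follicle cells late in egg development, chorion genes after the vitelline membrane genes. Of 15 measured, 8 were higher, 1 lower and 6 neither, and the median interaction was 1.052, against 0.25 over all genes. Of the major chorion genes 4 were called higher, and not all of those asked for by name had a match. Cp19 was at 865, 78.1, 513 and 254 RPKM (interaction 2.44) and Cp16 at 484, 61.3, 169 and 113 (2.39). Cp15 was at 2362, 212, 540 and 228 RPKM (2.23) and Cp18 at 1049, 203, 179 and 153 (2.14). The wild type control was highest for each of the 4. Under paraquat the mutant exceeded wild type by 1.69 for Cp19 and 0.88 for Cp16, while the difference was 0.10 for Cp15 and −0.40 for Cp18. The yellow-family genes yellow-g and yellow-g2, which are needed for a firm vitelline membrane, had the mutant control as the highest library. yellow-g2 was at 45.2, 0.186, 92.7 and 28.0 RPKM, with 8 reads in wild type paraquat. Its interaction was 3.59 and the mutant ratio 73.5 times that of wild type (37.1 to 171), while the mutant response was itself −1.69. yellow-g was at 22.3, 0.575, 40.2 and 16.6 RPKM (interaction 2.66) and overlaps another annotated gene. Femcoat, an eggshell protein gene, was at 145, 14.5, 62.6 and 44.05 RPKM with an interaction of 2.73.

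The vitelline membrane genes named here, made earlier in the same cells, mostly did not share this. In the whole eggshell list 6 of 15 members were below 0, and not all of these are named. Vm26Aa, Vm26Ab and Vm34Ca had interactions of −0.34, −0.38 and −0.64 and Vml of 0.11; only Vm26Ac passed the rule, at 1.052. Fcp3C, a follicle cell gene, was the 1 member called lower: it was at 30.4, 23.5, 24.6 and 4.04 RPKM, the mutant paraquat library alone being low, with an interaction of −1.99 and a mutant ratio 4.72-fold smaller (3.81 to 5.87). The yolk list, with Yp1, Yp2, Yp3, fit and yl as members, had values of one sign but under the rule. Of these members 5 of 5 were above 0, with a median of 0.46, and yl had the highest value, 0.68. Only the Yp members code for yolk proteins, which are made in fat body and follicle cells. Yp1 was at 3895, 1774, 4296 and 2626 RPKM (0.42). Within this list fit, expressed in female fat body, was at 27.8, 3.65, 41.9 and 10.0 RPKM. It was lower with paraquat in both genotypes, with an interaction of 0.67.

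**Figure D4:**
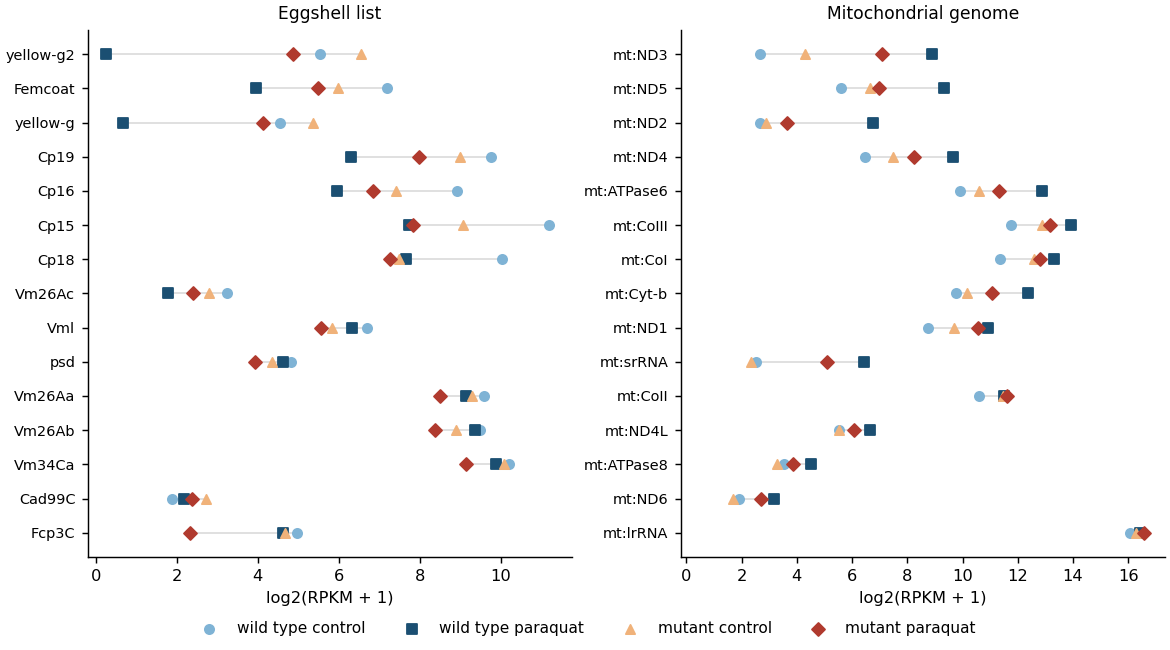
Values of log2(RPKM + 1) in the 4 libraries for the 15 eggshell genes (left, ordered from the highest interaction) and 15 genes of the mitochondrial genome (right, ordered from the lowest), 1 marker per library. Cp15, Cp16, Cp18 and Cp19 have the wild type control highest, and yellow-g and yellow-g2 have wild type paraquat lowest. The first 10 mitochondrial genes have wild type paraquat highest.

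Most genes of DNA replication and the cell cycle passed the rule on the higher side. Of 25 measured, 23 were higher and 0 lower, with a median of 1.22, and in all 23 the wild type control was high and apart. polo, a mitotic kinase gene, was at 110, 38.5, 48.5 and 45.9 RPKM (interaction 1.41), and Cdk1, the kinase that drives mitosis, at 59.7, 20.8, 28.4 and 27.7 (1.44). In both, the other 3 libraries lay closer to each other than to the wild type control. aurB, a kinase of chromosome segregation, had 1.46 and PCNA, the sliding clamp of replication, 1.04, while E2f1 (0.34) and Dp (0.61), subunits of the transcription factor that controls many of these genes, were the 2 not called. Under paraquat the list's median difference between the genotypes was 0.24. With upper-quartile scaling the list kept its sign but had a median of 0.99 and 12 genes called.

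Female germline and maternal genes had 11 of 23 higher and 0 lower, with a median of 0.95. plu had the highest value; its product and that of png drive, with gnu, the cell cycles of the early embryo. It was at 20.8, 7.23, 8.84 and 11.8 RPKM (1.78), and png at 38.6, 12.9, 13.95 and 12.4 (1.35). The differentiation gene bam (1.43), the piRNA pathway gene krimp (1.36) and the maternal axis gene bcd (1.33) were also called. Other germline genes were not, among them the piRNA genes aub (0.36), AGO3 (0.29) and piwi (0.58) and the oocyte genes osk (0.71), orb (0.30) and grk (−0.40). In 9 of the 11 called it was the wild type control that stood apart.

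Of 17 histone demethylases, H3K4 methylation genes and partners of Kdm5, 6 were higher, 0 lower and all 17 above 0, with a median of 0.88. Kdm4A, a demethylase of other lysines of histone H3, was at 33.5, 14.0, 16.9 and 16.5 RPKM (1.17), ash1, a histone methyltransferase gene, at 32.6, 12.9, 16.4 and 15.5 (1.19), and HDAC1, a histone deacetylase, at 58.7, 23.1, 27.5 and 24.0 (1.12). As in the cell cycle list, the wild type control was high and apart in all 6. Under paraquat the list's median difference between the genotypes was 0.16. The 6 calls depended on the scaling: 2 passed the rule with median-ratio scaling (list median 0.75), 0 with upper-quartile scaling (0.66) and 2 with a pseudocount of 5 (0.68).

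Detoxification enzymes mostly had negative interactions, since they went up further in wild type than in the mutant. Over all genes 8.36% were higher and 6.18% lower. Of 54 cytochrome P450s, 1 was higher, 13 lower and 40 neither; the median interaction was −0.44, with median responses of 0.51 in wild type and −0.02 in the mutant. In 8 of the 14 called the wild type control was the library apart, and under paraquat the list's median difference between the genotypes was 0.06. Cyp9b2 was at 13.6, 203, 59.1 and 104 RPKM: wild type went from the lowest to the highest level and the mutant changed less, for an interaction of −2.996 and a mutant ratio 8.46-fold smaller (7.75 to 9.25). Cyp6a23 (4.04, 40.1, 14.0 and 17.0 RPKM, −2.76) and Cyp6d4 (4.12, 45.1, 10.5 and 16.8 RPKM, −2.54) were alike. In these 3 the wild type paraquat library exceeded the mutant paraquat library by 0.95 to 1.37. This difference does not use the wild type control, but the genes were chosen by an interaction that uses both paraquat libraries. Cyp309a1 was not of this kind: it was at 2.23, 17.2, 18.2 and 22.8 RPKM, with the wild type control alone low (−2.19).

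Of 27 UDP-glycosyltransferases 1 was higher and 6 lower, with a median of −0.65; upper-quartile scaling gave 0 higher and 10 lower. Under paraquat the list's median difference between the genotypes was −0.11. Ugt37A3 stood out beside Ugt37A2, at 2.47, 87.6, 6.11 and 23.6 RPKM, with an interaction of −2.88 and a mutant ratio 9.17-fold smaller (7.31 to 11.5). Both genes were higher with paraquat in wild type than in any other library. Ugt37D1 (7.95, 33.8, 20.5 and 29.1 RPKM, −1.47) differed by only −0.21 between the genotypes under paraquat.

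Of 34 glutathione S-transferases 3 were higher, 7 lower and 24 neither, beside 8.36% higher and 6.18% lower over all genes. The list's median was −0.47, with median responses of 1.04 in wild type and 0.40 in the mutant. GstD1, an abundant member of the delta class, was at 72.03, 385, 289 and 486 RPKM: both genotypes were higher with paraquat, and the mutant control was already well above the wild type control, which gave −1.66. GstS1 was at 67.1, 256, 189 and 161 RPKM (−2.15) and GstD9 at 5.01, 38.6, 17.5 and 35.8 (−1.72). On the other side GstE8, of the epsilon class, was at 13.7, 14.0, 29.6 and 66.1 RPKM; the wild type response was 0.03, the mutant paraquat library was alone high, and the interaction was 1.104 with a ratio of 2.19 (1.80 to 2.65). GstD2 (1.06) and GstO1 (1.048) were the 2 other higher members. None of the 3 kept its call under the other scalings, which gave 0 higher with 10 lower (median-ratio) and 11 lower (upper-quartile). Under paraquat the list's median difference between the genotypes was −0.01.

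Metallothioneins were higher with paraquat in both genotypes and by less in the mutant. All 5 were below 0, 4 were called lower, and the median interaction was −1.11, with median responses of 2.39 and 1.06. MtnD was at 1.79, 28.4, 29.6 and 94.4 RPKM (−1.76), MtnE at 3.70, 31.0, 71.8 and 151 (−1.71) and MtnC at 58.4, 258, 163 and 334 (−1.10). In these 3 the mutant control was well above the wild type control and the mutant paraquat library was the highest of the 4. MtnB differed: at 17.4, 95.2, 10.6 and 27.2 RPKM (−1.11) its highest library was wild type paraquat.

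Of 14 antioxidant enzymes 1 was higher, 0 lower and 13 neither, beside 8.36% higher and 6.18% lower over all genes. The list's median was −0.13. Catalase (Cat) was at 64.1, 124, 113 and 117 RPKM (−0.89) with the wild type control low, and the mitochondrial superoxide dismutase Sod2 at 126, 167, 168 and 152 (−0.54). MsrA, which repairs oxidised methionine, was the 1 called, at 1.051; median-ratio and upper-quartile scaling each gave 0 higher and 1 lower. In the Nrf2 pathway, the regulator of many of these enzymes, and glutathione synthesis 0 of 8 were called and the median was −0.01.

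Heat shock proteins and co-chaperones had 4 of 10 higher and 2 lower, with a median of 0.58; with upper-quartile scaling 2 were higher and 2 lower. Hsp27 was at 447, 134, 157 and 163 RPKM (1.79; it overlaps another annotated gene) and Hsp26 at 379, 134, 273 and 265 (1.46). These 2 small chaperones, which are abundant in ovaries, had wild type responses of −1.73 and −1.49 and mutant responses of 0.06 and −0.04. DnaJ-1, a co-chaperone of Hsp70, was at 94.7, 60.7, 57.8 and 85.0 RPKM (1.18), lower with paraquat in wild type and higher in the mutant though neither response reached 1. Hsp23 went against these, at 10.8, 45.8, 46.3 and 59.5 RPKM (−1.62), with the wild type control low. Among 13 damage, JNK and cell death genes 1 was higher and 2 lower, beside 8.36% and 6.18% over all genes. The gene rpr, which triggers cell death, was at 1.67, 6.91, 1.57 and 1.18 RPKM (−1.80), high only in wild type paraquat. Xrp1, a transcription factor of damage responses, was at 29.1, 99.3, 53.7 and 84.0 RPKM (−1.10). Irbp, a DNA end-joining gene, was at 29.3, 11.7, 13.9 and 16.1 RPKM (1.45). Gadd45, a stress gene, had an interaction of 0.10 and puc, a target and inhibitor of the kinase JNK, of 0.04.

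In insulin and foxo signalling 1 of 10 was called higher, beside 8.36% over all genes. This was srl, a regulator of mitochondrial genes, which overlaps another annotated gene. It was at 74.5, 35.3, 50.7 and 52.5 RPKM (1.104). With median-ratio and with upper-quartile scaling it was not called, and the list had 0 calls. Thor, a translation inhibitor that foxo switches on, was at 201, 325, 98.5 and 299 RPKM, with a low mutant control and an interaction of 0.90.

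Muscle, cuticle, larval serum and fat body, and sugar digestion genes mostly had negative interactions, with the wild type control low in most of those called. Of 18 sarcomere genes 14 were lower and 0 higher, all 18 were below 0, and the median was −1.43. Act88F, the flight muscle actin, was at 307, 1308, 1453 and 1101 RPKM (−2.49), fln, a flight muscle thick filament protein, at 113, 508, 464 and 418 (−2.31) and Mhc, muscle myosin, at 132, 425, 355 and 328 (−1.79). For 12 of the 14 the library apart was the wild type control, and under paraquat the list's median difference between the genotypes was −0.41.

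Cuticular proteins of the Cpr family had 15 of 27 lower and 0 higher (median −1.11). Cpr62Bc was at 14.0, 79.7, 63.5 and 37.9 RPKM (−3.16) and Cpr100A at 39.5, 209, 162 and 120 (−2.80). For both the wild type control was low and wild type paraquat highest. Cpr92F was at 46.4, 211, 94.4 and 95.5 RPKM (−2.14), with wild type paraquat alone high. With a pseudocount of 5 the list's median was −0.80, and with no minimum level, which brings in members near 0 RPKM, it was −0.27.

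All 6 larval serum and fat body protein genes were lower, with the lowest list median, −2.58. The Lsp storage proteins among them are made by the larval fat body, cells of which persist for a few days after the adult emerges. Lsp1beta was at 7.83, 34.4, 47.4 and 31.5 RPKM (−2.58) and Fbp2 at 8.91, 48.5, 80.5 and 45.6 (−3.13; it overlaps another annotated gene). The mutant control was the highest library and the wild type control the lowest in both, while the 2 paraquat libraries were close: the list's median difference between the genotypes under paraquat was 0.07.

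Enzymes of starch, sugar and mannoside digestion had 11 of 15 lower and 0 higher (median −1.41). Mal-A7 was at 18.6, 88.2, 117 and 103 RPKM (−2.37) and Mal-A6, another maltase, at 33.5, 131, 208 and 198 (−2.01). The median response of the list was 1.57 in wild type and −0.05 in the mutant. The amylase genes Amy-p (−1.21) and Amy-d (−0.999) share most of their sequence, so how their reads were divided is uncertain. Gut serine proteases were mixed, with 8 of 28 lower, 2 higher (Jon65Ai at 1.25 and deltaTry at 1.01) and a median of −0.60. The wild type control was apart in only 3 of these calls, wild type paraquat in 2 and no single library in 5. Over all genes 6.18% were lower and 8.36% higher. Odorant-binding proteins had 9 of 26 lower and 0 higher (median −0.74), haemocyte markers 4 of 10 lower and 0 higher (−0.83), photoreceptor genes 1 of 16 (inaD, −1.03) and neuron markers 0 of 10 (−0.80). Obp99b was at 16.5, 74.6, 139 and 140 RPKM (−2.09) and Ppn, an extracellular matrix protein of haemocytes, at 3.74, 11.2, 11.3 and 9.53 (−1.58), both with the wild type control low. Neuron genes instead had wild type paraquat as the high library: Gad1, which makes the transmitter GABA, was at 3.20, 8.06, 4.35 and 4.81 RPKM (−0.99) and nSyb, a synaptic vesicle protein, at 14.5, 27.3, 17.2 and 18.0 (−0.81).

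Genes of the mitochondrial genome had the second lowest list median. Of 15 members 10 were lower, 0 were higher and all 15 were below 0, with a median of −1.71 and median responses of 2.17 in wild type and 0.72 in the mutant. mt:ND3, a subunit of complex I of the respiratory chain, was at 5.36, 469, 18.9 and 133 RPKM (−3.45, mutant ratio 12.4-fold smaller, 9.03 to 17.2). mt:ND5 was at 47.5, 640, 98.2 and 125 RPKM (−3.38) and mt:ND2 at 5.30, 107, 6.34 and 11.4 (−3.35). Wild type paraquat was the highest library for these 3. mt:CoI, a subunit of complex IV, was at 2604, 10209, 6127 and 7091 RPKM (−1.76). Not all transcripts moved alike: mt:CoII (1558, 2906, 2851 and 3098 RPKM) had −0.78 and mt:ND6 −0.26. For mt:lrRNA, the RNA of the large ribosomal subunit, with 9.12% of reads in the wild type control and 12.9% in the mutant with paraquat, it was −0.03. Under paraquat the list's median difference between the genotypes was −0.75.

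Nuclear genes of the respiratory chain had smaller values of one sign. All 65 were below 0, with a median of −0.73, and 2 passed the rule, UQCR-C2 of complex III at 137, 249, 269 and 239 RPKM (−1.03) and ATPsynF of the ATP synthase at 426, 767, 769 and 681 (−1.02). Both overlap another annotated gene. With median-ratio scaling 12 genes passed the rule (median −0.87) and with upper-quartile scaling 27 (−0.96). Both named genes had a low wild type control, and under paraquat the list's median difference between the genotypes was 0.00. Glycolysis genes had 11 of 11 below 0, with a median of −0.41, and 1 was called lower, beside 6.18% over all genes. This was Ldh, lactate dehydrogenase, at 4.41, 42.4, 9.96 and 24.5 RPKM (−1.78). It was higher with paraquat in both genotypes, with a mutant ratio 3.90-fold smaller (3.45 to 4.42).

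Antimicrobial peptides and Bomanins had 3 of 25 lower and 1 higher, beside 6.18% and 8.36% over all genes, with a median of −0.39. Lower calls were 5 with median-ratio and 7 with upper-quartile scaling. AttC, an attacin, was at 6.95, 5.57, 55.0 and 11.8 RPKM (−1.86; it overlaps another annotated gene): the mutant control alone was high, and the wild type response was −0.28. CecC, a cecropin, had the same shape at 0.629, 1.29, 2.95 and 0.831 RPKM (−1.60). BomS6, a Bomanin, was at 219, 381, 615 and 266 RPKM (−2.005), with responses of 0.80 in wild type and −1.21 in the mutant. Dro, drosocin, went the other way at 5.51, 2.94, 5.34 and 8.30 RPKM (1.28). Peptidoglycan recognition proteins had 0 of 8 called (median −0.48), and the Turandot stress genes, at −0.89, −0.84 and −0.49 for TotM, TotA and TotC, 0 of 3.

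The lists of ribosomal proteins and proteasome subunits lay near the median of all genes. Cytosolic ribosomal proteins had 0 of 79 called and a median of 0.22, which was −0.01 with upper-quartile scaling. Mitochondrial ribosomal proteins had 0 of 69 (0.29) and proteasome subunits 1 of 32, Rpt6R, lower (list median 0.26). Rpt6R is a variant subunit that reached only 1.66 RPKM at most. The vacuolar proton ATPase had 1 of 17 lower (median −0.49) and clock genes 0 of 11 (−0.52), both medians being below the lower quartile of all genes, −0.38. Read against the 8.36% and 6.18% called over all genes, the shares of calls were largest, in falling order, in the cell cycle, eggshell, germline, heat shock and chromatin lists on the higher side and in the fat body, metallothionein, muscle, sugar digestion, mitochondrial genome, Cpr, haemocyte and odorant-binding lists on the lower side. The wild type control was the library apart in most calls of each of these lists except the eggshell list (3 of 9) and the mitochondrial genome list (2 of 10). Among the detoxification enzymes it stood apart in 8 of 14 calls for cytochrome P450s, 6 of 10 for glutathione S-transferases and 4 of 7 for UDP-glycosyltransferases.

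**Figure D5:**
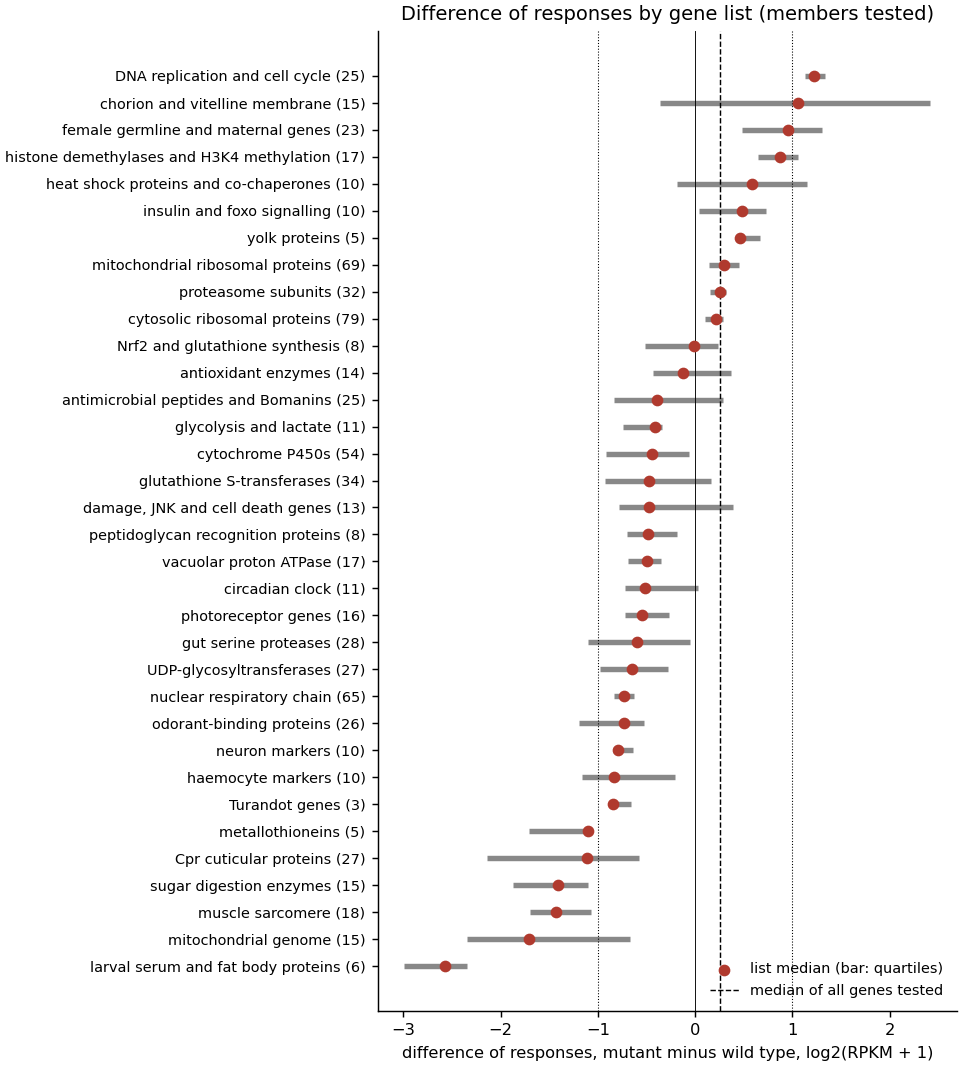
Points give the median interaction of each of 34 gene lists and bars the quartiles over its members, with the number of members in brackets; the dashed line is the median over all genes, 0.25, and dotted lines mark −1 and 1. Lists run from larval serum and fat body proteins at −2.58 to DNA replication and cell cycle genes at 1.22, and the 3 lists of the ribosome and proteasome sit at 0.22 to 0.29.

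Opposite responses, with a change of at least 1 in each genotype, were seen in 7 genes (0.0813%), up with paraquat in wild type flies but down in mutants. No gene (0.0%) had the reverse pattern. CG13065 is described above. Jon25Bii and Jon25Bi, neighbouring genes of Jonah gut serine proteases on chromosome 2L (4952243 to 4953136 and 4954279 to 4955144, minus strand), were at 32.5, 191, 85.9 and 35.4 RPKM and at 30.7, 137, 151 and 72.8 RPKM. Their interactions were −3.78 and −3.16, with mutant ratios 14.3-fold (12.8 to 15.9) and 9.22-fold smaller (8.35 to 10.2). The 2 genes are similar in sequence, so the split of reads between them is uncertain. Both were about as high in the mutant paraquat library as in the wild type control or above it, and they parted in the mutant control and the wild type paraquat library.

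The fat body genes Fbp1 and Lsp1alpha had opposite responses with a low wild type control. Fbp1, a receptor for larval storage proteins, was at 1.93, 17.5, 48.3 and 23.1 RPKM (−3.69) and Lsp1alpha at 1.81, 7.36, 14.7 and 6.81 (−2.58). Under paraquat the genotypes differed by 0.38 and −0.10. CG8736 was at 58.6, 394, 208 and 103 RPKM (−3.73, mutant ratio 13.5-fold smaller, 12.6 to 14.5) and CG5172 at 3.96, 25.6, 7.18 and 2.67 (−3.58, 17.4-fold, 12.8 to 23.7). For these 2 and CG13065 wild type paraquat was the highest library, and the genotypes differed under paraquat by −1.92, −2.86 and −3.60. These values do not use the wild type control. They are no separate check, because the genes were chosen by responses that use the same paraquat libraries.

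A small set of genes had an interaction set by a mutant library. Their wild type libraries lay closer to each other than to the mutant library: 12 called genes had the mutant control apart and 13 the mutant paraquat library. Most of those named in this and the next paragraph were chosen after their values were seen. With the mutant control low, CG15043 was at 112, 155, 15.8 and 108 RPKM (2.23, ratio 4.93, 4.41 to 5.52), CG13324 at 72.5, 79.2, 25.7 and 113 (1.97) and CG11825 at 7.68, 5.92, 1.63 and 6.14 (1.77). In these genes the mutant paraquat library was within the wild type range, near it or above it. Arc1, whose product forms capsids that carry RNA between cells, was at 160, 261, 25.7 and 86.9 RPKM (1.01). It remained below wild type with paraquat, by 1.58. With the mutant control high, beside AttC and CecC, were CG17108 at 56.5, 56.8, 177 and 73.8 RPKM (−1.26), CG16756 at 4.85, 5.97, 12.4 and 6.47 (−1.09) and the esterase gene Est-6 at 14.6, 20.0, 28.6 and 18.9 (−1.004).

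With the mutant paraquat library low, beside Fcp3C, were Fad2, a desaturase of female pheromone synthesis, at 59.1, 37.2, 25.4 and 4.74 RPKM (−1.55, 3.37-fold smaller, 2.83 to 4.03), CG14187 at 14.4, 14.5, 12.5 and 3.42 (−1.63), and Uro, urate oxidase of the Malpighian tubules, at 24.3, 24.2, 38.7 and 13.2 (−1.48). Jhbp5 was at 26.3, 17.3, 23.9 and 5.22 RPKM (−1.42) and overlaps Jhbp4. With that library high, beside GstE8, were CG7130 at 13.5, 13.03, 10.6 and 33.2 RPKM (1.61, ratio 3.26, 2.57 to 4.13), CG5773 at 15.5, 15.7, 14.3 and 41.3 (1.46) and CG42365 at 24.6, 19.3, 18.5 and 36.1 (1.26; it overlaps other annotated genes). In CG7130 and CG5773 the other 3 libraries lay between 10.6 and 15.7 RPKM.

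Other called genes had wild type paraquat alone high. For these, a property of that library and a difference between the genotypes in their response cannot be told apart. Chosen after their values were seen, Mdr50, a drug efflux pump gene, was at 1.77, 17.5, 2.045 and 1.96 RPKM (−2.78, 10.3-fold smaller, 8.45 to 12.7), Dgat2, which makes triglyceride, at 0.669, 7.995, 1.28 and 1.67 (−2.20) and Acp65Aa, an adult cuticle protein, at 181, 662, 213 and 234 (−1.73). CG4962 (32.3, 169, 35.2 and 35.5 RPKM, −2.34) and CG13043 (0.886, 12.7, 0.602 and 0.586, −2.87) lie close to CG13044 and CG13065 on 3L.

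By position, higher calls took 9.15% of the 1334 genes on chromosome X and 7.89% to 8.995% of the genes on each large autosomal arm. Lower calls took 3.52% on X against 6.04% to 7.01% on those arms. Of 77 genes on chromosome 4, 0 were higher and 6 (7.79%) lower. Called genes had called neighbours more often than genes in general: 159 of 508 lower genes with a position (31.3%) had a lower gene next to them, against 11.5% of all 8307 genes so placed, and 162 of 697 higher genes (23.2%) had a higher neighbour, against 16.0%. Neighbouring members of gene families, such as the Jonah 25B and maltase genes, are counted in these shares. Overlap matters for single genes too: beyond those marked above, CG13083, CG11825, tobi, fln, bam, HDAC1, Irbp, Gad1, inaD, Yp1, fit and Est-6 overlap another annotated gene, so part of their reads may come from it. The median RPKM of higher genes was 25.1 and 10.1 without and with paraquat in wild type and 13.03 and 12.6 in the mutant, and that of lower genes 5.28, 14.3, 13.6 and 11.4. In both directions the wild type control was the library farthest from the rest.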

How the data were processed

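Whole female flies were profiled in 4 groups of 1 library each, and the reads per library ranged from 27.9 M to 29.1 M (M, 1e6). Per the file headers, each deposited table gives for every gene ID a whole-number count of uniquely mapped reads, a length, the covered part of that length in percent, and RPKM. The RPKM values as deposited equal the count divided by the length and by the total of the library, with a largest relative gap of 5.13e-07. Of 8326 members with a position, 91.5% had a deposited length within 5% of the gene span, introns included, in the BDGP6 annotation, so RPKM understates levels of genes with long introns. Cufflinks and the genome build dm3 are named in the submitters' processing notes. For the aligner, the gene annotation and strand-specific counting, the sources used here give nothing. Positions are from the BDGP6 annotation by gene ID.

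Genes missing from a table were taken as 0 reads; 3 reads, the floor for absence, are 0.103 to 0.107 RPKM in a gene of 1 kb. Values were used as deposited, in Python 3.11.15 with numpy 2.4.6, pandas 2.3.3 and scipy 1.17.1, with a pseudocount of 1 and a minimum of 1 RPKM in any library. With 4 libraries and 4 parameters no spread is left for a test, so a size rule of 1 on the log2(RPKM + 1) scale stood in for it. This scale understates changes of genes near 1 RPKM. The ratio of the 2 responses was computed from reads with an exact conditional 95% interval, which covers counting error only. The code was tested on simulated data.

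Genes named are the 12 highest and 12 lowest with a symbol and at least 5 RPKM in a library, up to 4 members of each of 35 lists by size, up to 6 for each library apart, all with opposite responses, and Kdm5; others were chosen after their values were seen. Members and lists were chosen with earlier results of these data known. Of 279 symbols asked for by name, 42 had no match and are not analysed here, and 5 symbols that fitted a family pattern without belonging to it (Cp110, Cp190, Fcp1, Cyp1 and Cyp40) were left out after their values were seen. Of 189 named genes 48 overlap another annotated gene, so reads of the pair may be shared. Only unique reads were counted, which lowers near-identical copies. Alternatives were pseudocounts of 0.1 and 5, no minimum and a minimum of 5 RPKM, median-ratio and upper-quartile scaling, totals without mt:lrRNA, and counts per 1e6 reads not divided by length. The mutant control as baseline of both genotypes was added after the data were seen.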

Additional observations from a re-analysis of the deposited data

Results flagged for a closer look

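For 7 genes the wild type pair of libraries went up by at least 1 with paraquat and the mutant pair went down by at least 1; with 1 library per group this difference in direction was not tested. Their interaction values on the log2(RPKM + 1) scale were −5.36 for CG13065, −3.78 for Jon25Bii, −3.73 for CG8736, −3.69 for Fbp1, −3.58 for CG5172, −3.16 for Jon25Bi and −2.58 for Lsp1alpha. The wild type control was low and apart for Fbp1, Lsp1alpha and Jon25Bi, and for these 3 the mutant and wild type paraquat libraries differed by 0.38, −0.10 and −0.90.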

How the results depend on the processing

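No replicate could be left out, since each group has 1 library. No paired analysis was possible because each group holds only 1 sample. The interaction of 720 higher and 532 lower genes depended on the pseudocount: 996 and 950 genes passed at 0.1, and 281 and 247 at 5. Under median-ratio scaling there were 415 and 713 (36.8% of calls higher, against 57.5%), under upper-quartile scaling 296 and 861 (25.6%), as counts per 1e6 reads 872 and 913, and with the mutant control as the baseline of both genotypes, chosen after seeing the data, 195 and 229 (46.0%). The median over all genes, 0.25, was 0.28 and 0.18 with pseudocounts of 0.1 and 5, 0.040 with no minimum, 0.39 with a minimum of 5 RPKM, 0.13 and 0.044 with median-ratio and upper-quartile scaling, 0.25 without mt:lrRNA, 0.19 as counts per 1e6 reads and 0.077 with the mutant control as baseline. The 7 genes up in wild type and down in the mutant became 20 with a pseudocount of 0.1, 3 with 5, 4 with median-ratio scaling and 4 without mt:lrRNA; the reverse pattern, seen in 0 genes, was met by 2 with a pseudocount of 0.1. Calls with the wild type control apart, 904, were 360 with a pseudocount of 5. The cause was not tested, except that a pseudocount of 5 shrinks and one of 0.1 widens differences of low genes by construction. Of 189 named genes none changed sign past the rule under these settings. With a pseudocount of 5 the value of 1 gene under the rule, TotC, changed sign, and 20 genes were no longer called. Under median-ratio scaling 7 were no longer called and under upper-quartile scaling 10. The eggshell list's median of 1.052 was 0.61 with a pseudocount of 5, 0.94 and 0.87 under median-ratio and upper-quartile scaling and 0.95 as counts per 1e6 reads, with 7 genes called higher in each. The median of the damage and JNK list, −0.47, was 0.07 with a minimum of 5 RPKM.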
